A study of Rattus norvegicus with 9 samples.

Results

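Skeletal muscle makes up most of the body of the tongue, and its fast fibres carry their own set of contractile proteins. The fast muscle fibre genes described here were 10 genes, taken by name: the myosin heavy chains Myh1, Myh2 and Myh4, the Z-disc protein gene Actn3, the fast troponins Tnnt3, Tnni2 and Tnnc2, the myosin-binding protein gene Mybpc2, the calcium buffer gene Pvalb and the calcium pump gene Atp2a1. All probe sets annotated with only 1 of these symbols were used, which gave 16 probe sets for 10 of the 14217 genes on the arrays. Their RNA was read in tongue tissue from Sprague-Dawley males, with 9 arrays in 3 groups of 3. The IL-1Ra group drank 0.002% 4-nitroquinoline oxide (4NQO), a carcinogen of the tongue, and was also given IL-1Ra, the natural antagonist that blocks the receptor of interleukin-1. The 4NQO group drank 0.002% 4NQO without IL-1Ra, and the normal group drank distilled water. According to the labels, rats on 4NQO were killed between week 14 and week 22, when lesions could be seen. The study's methods instead date the killing of all groups to the close of week 22, and this difference was not resolved. The same methods place IL-1Ra, or saline in the 4NQO group, in weekly injections beneath the lining of the mid-tongue after a first course of 4NQO. They name no injection for the normal group, so injection and 4NQO cannot be told apart in the comparisons with normal tongue. The sources used here do not give the lesion stage of each tongue or the age of the rats. The tissue was not sorted for muscle, and how much lesion a sample held is not known.

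In a fast fibre, the myosin heavy chain pulls on actin, and its isoform sets how fast the fibre shortens: Myh2 encodes type IIa, the most oxidative of the fast forms, Myh1 type IIx, and Myh4 type IIb, the fastest. Calcium released from the sarcoplasmic reticulum binds troponin C, which with troponins I and T lets myosin reach the thin filament, and the pump SERCA1 encoded by Atp2a1 returns the calcium to the store. Slow fibres use paralogous proteins for the same steps, encoded by genes such as Myh7, Tnnt1, Tnni1, Tnnc1 and Atp2a2. The rodent tongue is known to be composed mainly of fast fibres.

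The 3 myosin genes lay side by side on rat chromosome 10, in the order Myh3, Myh2, Myh1, Myh4, Myh8 and Myh13, with 0 protein-coding genes between neighbours in the RefSeq annotation of GRCr8. The 250 bases before the start of each of the 3 fast myosin genes are shown because these neighbours are close copies that were measured separately and differed in their values below. They lay on the plus strand, at chr10:52355489-52355738 for Myh2, chr10:52384662-52384911 for Myh1 and chr10:52421898-52422147 for Myh4. The capitals mark the longest run of bases that all 3 windows share, 20 bases that begin at position -170 in Myh2, -166 in Myh1 and -177 in Myh4, counted from the start of each gene.
Myh2: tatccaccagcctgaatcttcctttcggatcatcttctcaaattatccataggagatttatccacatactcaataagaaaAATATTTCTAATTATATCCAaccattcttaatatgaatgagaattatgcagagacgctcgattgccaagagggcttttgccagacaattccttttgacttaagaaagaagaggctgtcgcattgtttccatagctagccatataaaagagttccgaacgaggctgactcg
Myh1: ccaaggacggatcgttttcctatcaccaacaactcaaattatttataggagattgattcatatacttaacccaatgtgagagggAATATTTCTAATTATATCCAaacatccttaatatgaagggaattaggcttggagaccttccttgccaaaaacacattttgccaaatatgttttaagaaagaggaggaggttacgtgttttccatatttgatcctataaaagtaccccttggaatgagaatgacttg
Myh4: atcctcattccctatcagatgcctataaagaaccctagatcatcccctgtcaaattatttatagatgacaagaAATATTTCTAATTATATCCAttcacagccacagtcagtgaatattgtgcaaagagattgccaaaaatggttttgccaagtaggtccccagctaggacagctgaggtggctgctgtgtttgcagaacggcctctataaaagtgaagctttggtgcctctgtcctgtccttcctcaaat

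The shared run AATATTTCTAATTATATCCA was found, on either strand, in 5 of 33469 promoter windows of the same length (0.0149%). The other 2 windows belonged to an uncharacterised RNA gene, LOC102555216. Set base against base without gaps, the Myh2 and Myh1 windows were alike at 86 of 250 positions, Myh2 and Myh4 at 61, and Myh1 and Myh4 at 56. The shared run starts at a different position in each window, so these counts do not line it up. They are therefore not a measure of how alike the promoters are. Promoter windows were found for 9 of the 10 genes. The letters TATAAA, searched on both strands, stood in 4 of these 9 windows (Tnni2, Myh2, Myh1 and Myh4) and in 12.9% of all windows. The E-box CANNTG, the core bound by the MyoD family of muscle factors, stood in 6 of the 9 windows and in 65.5% of all windows. A MEF2-type motif, which can overlap the TATA letters, was found in Myh1 and Myh4 and in 2.96% of all windows, and a CArG box in Myh4 and in 1.5% of all windows. These are matches of letters only, and binding was not measured.

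Genes of skeletal muscle were checked first against the tissue label. By the brightest probe set of each gene, the fast troponins and Atp2a1 ranked near the top of every array. Tnnc2 stood at or above the 99.96th percentile of all probe sets on every array, Tnni2 at or above the 99.87th, Tnnt3 at or above the 99.86th and Atp2a1 at or above the 99.84th. Myh1, Myh2, Myh4 and Mybpc2 stood at or above the 97.17th percentile on every array. Actn3 and Pvalb were not among the brightest throughout. On IL-1Ra array 2 they fell to the 56.04th and the 79.07th percentile. The heart markers Nppa, Nppb, Myh6, Tnni3 and Ryr2 averaged between 3.77 and 4.22 log2 on the 9 arrays, near the low end of the range. All values given are log2 of the deposited intensity. Levels of different probe sets were not compared as amounts of RNA, since probes differ in how strongly they bind. The arrays correlated with each other at 0.967 to 0.995, and 0 pairs were identical. Nothing in the labels says in so many words that the 3 samples of a group came from separate rats, so the p-values measure the spread between these samples.

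By limma, a linear model with moderated variances fitted over all 31042 probe sets, 0 of the 10 genes passed an adjusted p of 0.05 in any of the 3 comparisons, judged by the brightest probe set of each gene. Of all probe sets, 2.33% passed in IL-1Ra against 4NQO, 14.9% in 4NQO against normal and 1.87% in IL-1Ra against normal. At an unadjusted p under 0.05 stood 3 of the 10 genes in IL-1Ra against 4NQO (Actn3, Myh2 and Mybpc2), beside 21.7% of all genes, 2 in 4NQO against normal (Mybpc2 and Actn3), beside 36.5%, and 1 in IL-1Ra against normal (Myh2), beside 25.6%. The median difference over the 10 genes was -0.17 log2 in IL-1Ra against 4NQO, beside -0.04 over all genes. It was 0.06 in 4NQO against normal, beside 0.08, and -0.13 in IL-1Ra against normal, beside 0.04. The genes are described by the role of their proteins.

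**Figure D1:**
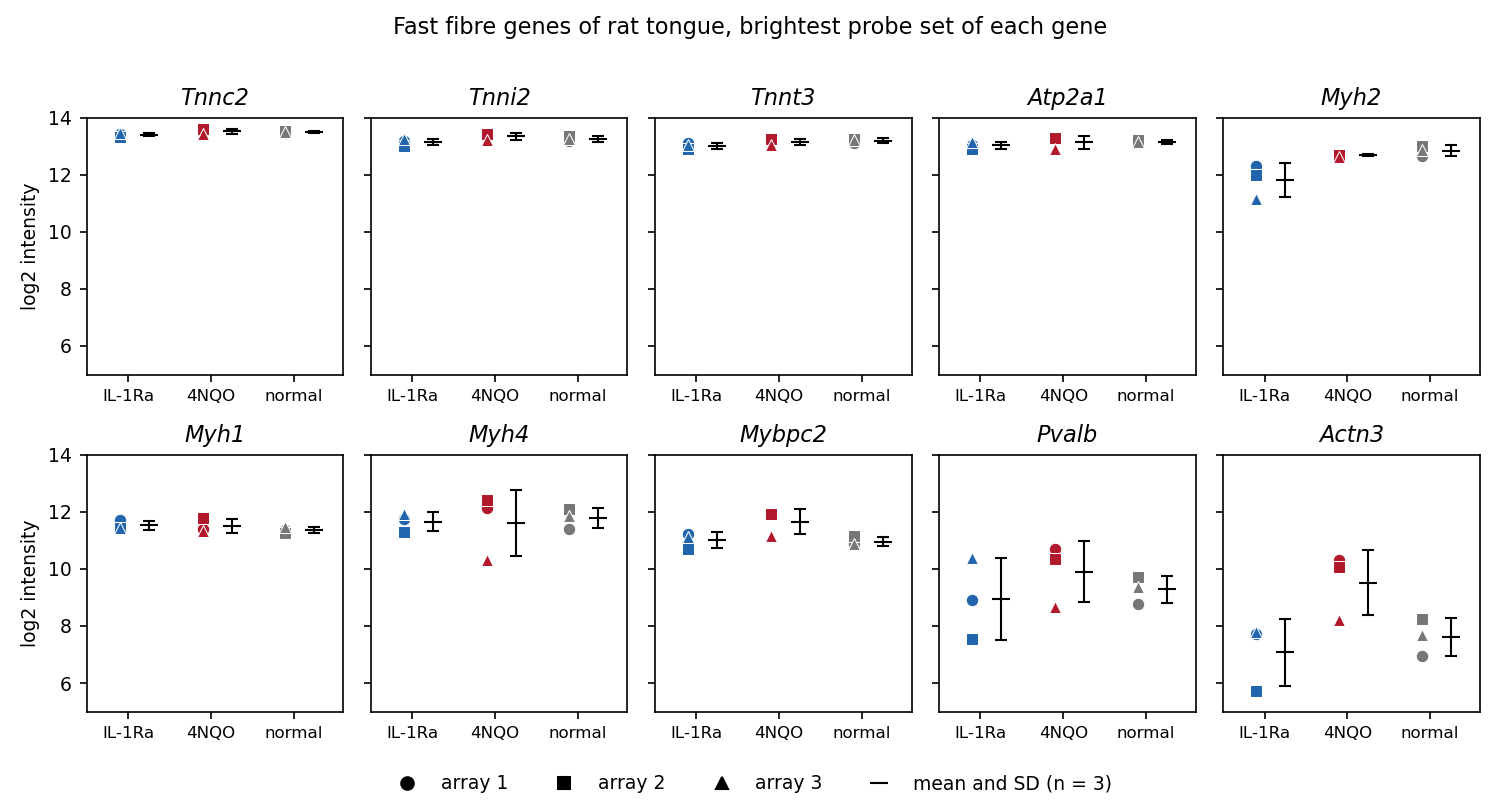
Log2 intensity of the brightest probe set of each of the 10 fast fibre genes on the 3 IL-1Ra (blue), 4NQO (red) and normal (grey) arrays, with the mean and SD of each group beside the points and a marker shape for each array number. The troponins and Atp2a1 crowd between 12.89 and 13.60, while Actn3 and Pvalb spread widely, and the red triangle, 4NQO array 3, is the lowest 4NQO array in all 10 genes.

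Among the myosin heavy chains, Myh2 was the gene whose IL-1Ra arrays stood apart. It was at 12.32, 11.98 and 11.14 log2 on the IL-1Ra arrays, 12.69, 12.71 and 12.64 on the 4NQO arrays, and 12.66, 13.02 and 12.88 on the normal arrays. Every IL-1Ra array lay below every array of the other groups, and the 4NQO and normal arrays overlapped. The difference in IL-1Ra against 4NQO was -0.86 log2 (SE 0.25, 1.82-fold lower; limma adjusted p = 0.101), and in IL-1Ra against normal it was -1.04 (SE 0.25, 2.06-fold lower; limma adjusted p = 0.0614). Between 4NQO and normal it was -0.18 (95% interval -0.73 to 0.38). The moderated F test for any difference among the 3 groups passed for Myh2 (limma adjusted p = 0.0416), as it did for 12% of all probe sets.

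The difference of Myh2 between IL-1Ra and normal sat at the edge of the test. Over the other settings its limma adjusted p ran between 0.0205, with array weights, and 0.208, without normal array 2. It passed in 3 of those settings by limma: with array weights, without 4NQO array 3 (adjusted p = 0.0484) and with each array scaled to its upper quartile (adjusted p = 0.045). Within the IL-1Ra group, array 3 was the lowest for Myh2, whereas array 2 was the lowest in the other 9 genes by their brightest probe sets. For Myh1 that margin was slight, at 11.44 log2 against 11.45 on array 3. The dimmer Myh1 probe sets 1377720_x_at, 1383162_at and 1377114_at were lowest on array 3, and 1377719_a_at on array 2.

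Myh4, the type IIb chain, showed no such pattern. It was at 11.74, 11.28 and 11.93 log2 on the IL-1Ra arrays, 12.14, 12.40 and 10.30 on the 4NQO arrays, and 11.41, 12.09 and 11.86 on the normal arrays. The groups overlapped throughout, and 4NQO array 3 lay below all other arrays. The difference was 0.04 log2 in IL-1Ra against 4NQO (95% interval -0.99 to 1.06) and -0.17 in 4NQO against normal (-1.20 to 0.85), so changes of about 2-fold in either direction remain within the interval.

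Myh1, the type IIx chain, was read by 5 probe sets, of which 4 were bright. The brightest was at 11.70, 11.44 and 11.45 log2 on the IL-1Ra arrays, 11.40, 11.80 and 11.32 on the 4NQO arrays, and 11.38, 11.25 and 11.48 on the normal arrays. The groups overlapped, and the differences were 0.02 in IL-1Ra against 4NQO (95% interval -0.30 to 0.35), 0.13 in 4NQO against normal (-0.19 to 0.46) and 0.16 in IL-1Ra against normal (-0.17 to 0.48). The other 3 bright probe sets, with means over the 9 arrays between 10.98 and 11.29, gave differences between -0.21 and 0.23 in all 3 comparisons. One of them (1377720_x_at) carries the suffix that Affymetrix gives to probe sets with probes shared with other sequences, so it may also read other myosins.

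The dimmest Myh1 probe set (1377114_at) went another way. It was at 8.09, 7.95 and 7.21 log2 on the IL-1Ra arrays, 7.71, 7.99 and 8.04 on the 4NQO arrays, and 8.15, 8.43 and 8.19 on the normal arrays. Both treated groups lay wholly below the normal arrays, by 0.51 log2 for IL-1Ra (limma adjusted p = 0.192) and 0.35 for 4NQO (limma adjusted p = 0.275), and neither difference passed. The bright probe sets did not show this separation, so the probe sets of Myh1 disagreed. Without overlap and lower, 15.9% of all probe sets did the same in IL-1Ra against normal and 17.6% in 4NQO against normal.

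The neighbours of the fast myosins in the cluster were dimmer. Myh8, the perinatal chain, was at 7.23 ± 0.67 log2 in IL-1Ra tongue, 8.64 ± 0.73 in 4NQO tongue and 8.70 ± 1.29 in normal tongue (SD, n = 3), and its difference in IL-1Ra against 4NQO did not pass (limma adjusted p = 0.241). Myh3, the embryonic chain, averaged 4.80, 5.48 and 5.63 in IL-1Ra, 4NQO and normal tongue. Myh13, the extraocular chain, averaged 4.05, 3.98 and 4.13.

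Actn3, encoding alpha-actinin-3, which anchors actin at the Z-disc of fast fibres only, had the widest range of the 10 genes. It was at 7.73, 5.73 and 7.79 log2 on the IL-1Ra arrays, 10.30, 10.06 and 8.21 on the 4NQO arrays, and 6.93, 8.26 and 7.68 on the normal arrays. All IL-1Ra arrays lay below all 4NQO arrays, whereas the 4NQO and normal arrays overlapped because 4NQO array 3 fell just under normal array 2. The group means were 7.08 ± 1.18 in IL-1Ra tongue, 9.52 ± 1.14 in 4NQO tongue and 7.63 ± 0.67 in normal tongue (SD, n = 3).

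Actn3 was 5.43-fold lower in IL-1Ra against 4NQO (-2.44 log2, SE 0.65; limma adjusted p = 0.0845) and 3.72-fold higher in 4NQO against normal (1.90 log2, SE 0.65; limma adjusted p = 0.0761), and neither passed. Between IL-1Ra and normal the difference was -0.54 (95% interval -2.0 to 0.91). These calls turned on 4NQO array 3. Without it the difference was -3.10 log2 in IL-1Ra against 4NQO (limma adjusted p = 0.0203) and 2.55 in 4NQO against normal (limma adjusted p = 0.0269). Over all other settings the adjusted p ran between 0.0203 and 0.435 for IL-1Ra against 4NQO and between 0.0269 and 0.218 for 4NQO against normal, the upper ends from the methods' t-test after Benjamini-Hochberg adjustment.

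With Myh2, Actn3 made 2 of the 10 genes whose IL-1Ra arrays lay wholly below the 4NQO arrays, beside 11.7% of all probe sets. Against normal, the IL-1Ra arrays of 1 gene of 10 did so (Myh2), beside 15.9%. Between 4NQO and normal, 0 of 10 separated in either direction, beside 38.2% of all probe sets.

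Mybpc2, encoding the fast form of myosin-binding protein C of the thick filament, was read by 2 probe sets that pointed the same way. The brighter was at 11.24, 10.70 and 11.12 log2 on the IL-1Ra arrays, 11.91, 11.94 and 11.14 on the 4NQO arrays, and 10.86, 11.15 and 10.87 on the normal arrays. The 4NQO arrays 1 and 2 lay above all others, and array 3 lay within the range of the other groups. The difference was -0.64 log2 in IL-1Ra against 4NQO (SE 0.22; limma adjusted p = 0.159), 0.70 in 4NQO against normal (SE 0.22, 1.62-fold higher; limma adjusted p = 0.0608) and 0.06 in IL-1Ra against normal.

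The dimmer Mybpc2 probe set (1376968_at) was the 1 probe set of 16 that passed in any comparison. It was at 9.31, 8.40 and 8.87 log2 on the IL-1Ra arrays, 9.93, 9.75 and 9.21 on the 4NQO arrays, and 8.41, 8.11 and 8.34 on the normal arrays. All 4NQO arrays lay above all normal arrays, as did those of 20.6% of all probe sets, and the IL-1Ra arrays overlapped the 4NQO and the normal range. It was 2.53-fold higher in 4NQO against normal (1.34 log2, SE 0.24; limma adjusted p = 0.0100), a direction in which 9.41% of all probe sets passed, while the difference in IL-1Ra against 4NQO was -0.77 (SE 0.24; limma adjusted p = 0.124) and that in IL-1Ra against normal 0.57 (SE 0.24; limma adjusted p = 0.193). Without 4NQO array 3 the brighter probe set passed too, at 0.96 log2 in 4NQO against normal (limma adjusted p = 0.0134) and -0.90 in IL-1Ra against 4NQO (limma adjusted p = 0.0192). Over its other settings the adjusted p of the brighter probe set ran between 0.0134 and 0.215 for 4NQO against normal, and between 0.0192 and 0.505 for IL-1Ra against 4NQO.

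Pvalb, encoding the calcium buffer parvalbumin that speeds relaxation in fast fibres of rodents, also varied widely. It was at 8.92, 7.54 and 10.39 log2 on the IL-1Ra arrays, 10.69, 10.36 and 8.67 on the 4NQO arrays, and 8.77, 9.71 and 9.37 on the normal arrays. The groups overlapped, and IL-1Ra array 2 and 4NQO array 3 were the lowest of all. The difference was -0.96 log2 in IL-1Ra against 4NQO (95% interval -2.48 to 0.56; limma adjusted p = 0.486) and 0.63 in 4NQO against normal (-0.89 to 2.14; limma adjusted p = 0.553).

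**Figure D2:**
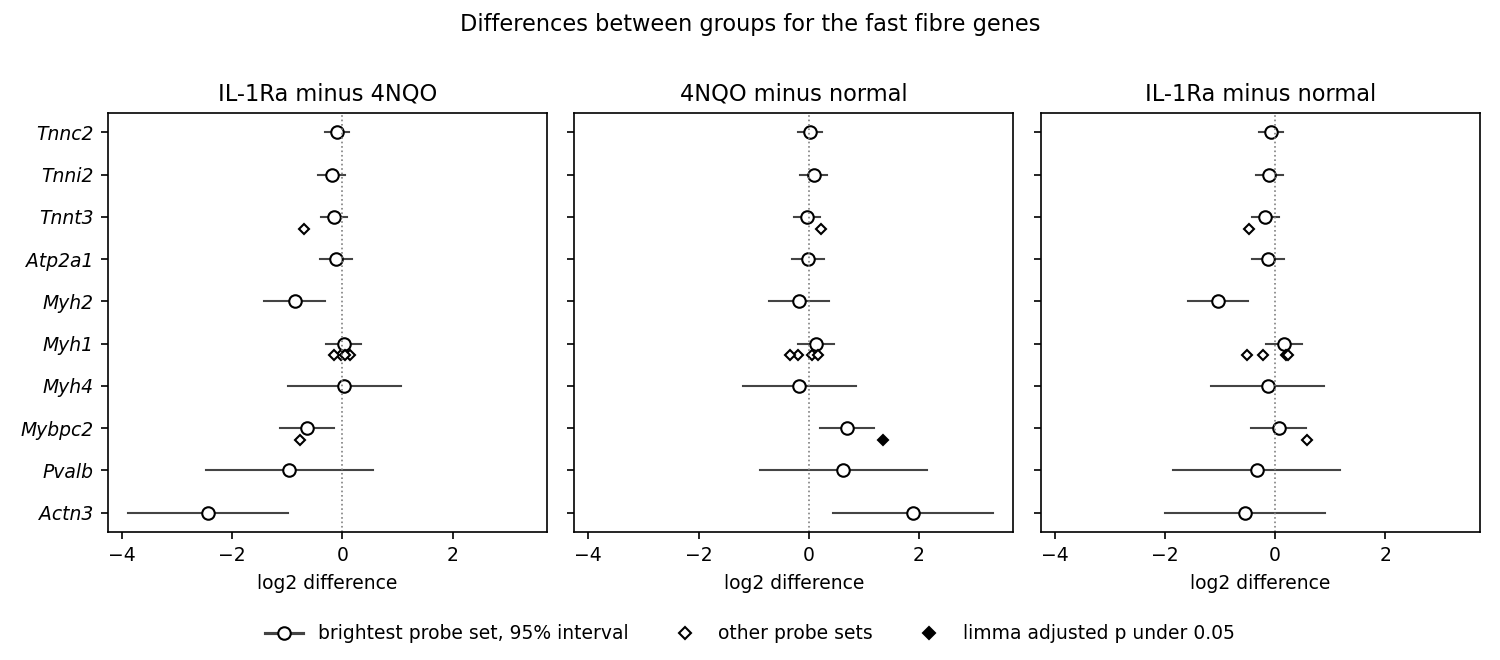
Differences between group means (log2) for the 10 fast fibre genes in the 3 comparisons. Circles and bars are the brightest probe set with its 95% interval, diamonds the other probe sets, and the 1 filled diamond is the Mybpc2 probe set that passed in 4NQO against normal at 1.34. The intervals of Actn3, Pvalb and Myh4 are several times as wide as those of the troponins.

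The fast troponins and the calcium pump differed little between groups. Tnnc2, encoding the calcium-binding subunit, was at 13.43, 13.34 and 13.47 log2 on the IL-1Ra arrays, 13.53, 13.60 and 13.43 on the 4NQO arrays, and 13.46, 13.52 and 13.50 on the normal arrays. Tnni2, encoding the inhibitory subunit, was at 13.20, 13.02 and 13.24 on the IL-1Ra arrays, 13.41, 13.43 and 13.21 on the 4NQO arrays, and 13.18, 13.36 and 13.24 on the normal arrays. In both genes the groups overlapped, and IL-1Ra array 2 was the lowest array of the 9. The differences in IL-1Ra against 4NQO were -0.10 for Tnnc2 (95% interval -0.32 to 0.11) and -0.19 for Tnni2 (-0.44 to 0.06).

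Tnnt3, encoding the tropomyosin-binding subunit, was at 13.11, 12.90 and 13.04 log2 on the IL-1Ra arrays, 13.20, 13.25 and 13.04 on the 4NQO arrays, and 13.10, 13.27 and 13.21 on the normal arrays. Atp2a1 was at 13.05, 12.89 and 13.16 on the IL-1Ra arrays, 13.25, 13.29 and 12.89 on the 4NQO arrays, and 13.10, 13.22 and 13.15 on the normal arrays. The groups overlapped in both genes. The differences in IL-1Ra against 4NQO were -0.15 for Tnnt3 (95% interval -0.39 to 0.09) and -0.11 for Atp2a1 (-0.40 to 0.18). The second Tnnt3 probe set (1397499_at) was dim and ranged more, at 6.59, 5.71 and 6.88 on the IL-1Ra arrays, 7.60, 7.46 and 6.22 on the 4NQO arrays, and 6.61, 7.43 and 6.56 on the normal arrays. It did not pass in any comparison, and its IL-1Ra arrays 1 and 3 lay within the range of the 4NQO arrays.

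These 4 genes stood close to the top of what the arrays read. The highest probe set of each array lay between 13.73 and 14.14 log2, and Tnnc2 was 0.20 to 0.62 log2 below it, Tnni2 0.37 to 0.81, Tnnt3 0.55 to 0.93 and Atp2a1 0.51 to 0.94. Only 31 probe sets averaged over 13 log2, these 4 among them, and their median range over the 9 arrays was 0.29 log2. The median range was 0.42 for 180 probe sets between 12 and 13, 0.63 for 863 between 10 and 12, and 0.70 for 3690 between 8 and 10. The ranges of Tnnc2, Tnni2, Tnnt3 and Atp2a1 were 0.26, 0.41, 0.37 and 0.40. Of the probe sets over 13 log2, 0% passed in IL-1Ra against 4NQO and 3.23% in 4NQO against normal, beside 4.44% and 20.4% of those between 8 and 10. Whether the brightest spots were saturated was not tested, since the deposited values carry no flag for it. The narrow intervals of these 4 genes are therefore intervals of the array reading near its upper end.

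**Figure D3:**
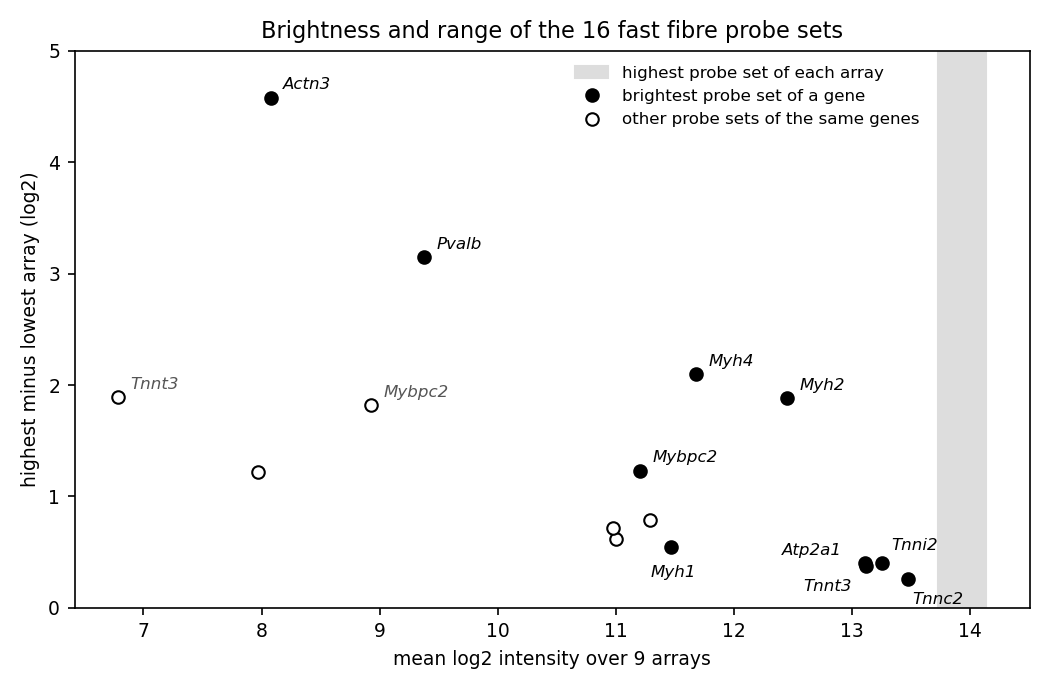
Mean log2 intensity over the 9 arrays (horizontal) against the highest minus the lowest array (vertical) for the 16 fast fibre probe sets, filled for the brightest probe set of each gene and open for the others, with the 4 unnamed open points from Myh1. The grey band spans the highest probe set of each array, 13.73 to 14.14, and the 4 genes next to it have ranges of 0.41 or less, while Actn3 reaches 4.58.

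The 10 genes shared a pattern among the arrays of a group that the group labels do not describe. The 4NQO array 3 was the lowest of the 4NQO arrays in 10 of 10 genes. IL-1Ra array 2 was the lowest of its group in 9 of 10 and normal array 1 in 9 of 10, while normal array 2 was the highest in 9 of 10. For Myh1, IL-1Ra array 2 was only just the lowest, at 11.44 log2 against 11.45 on array 3. As a mean over the 10 genes, the deviation from the normal arrays was -0.05, -0.62 and -0.02 log2 on the IL-1Ra arrays, 0.55, 0.58 and -0.21 on the 4NQO arrays, and -0.21, 0.19 and 0.02 on the normal arrays. Actn3 and Pvalb weigh heavily in this mean, at 2.675 and 1.405 on 4NQO array 1. The median over the 10 genes was -0.058, -0.28 and 0.04 on the IL-1Ra arrays. It was 0.12, 0.295 and -0.109 on the 4NQO arrays, and -0.099, 0.133 and 0.022 on the normal arrays.

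Genes of the sarcomere that both fibre types use followed the same arrays. Over 13 such genes (for example Acta1, Ttn and Des), the mean deviation was -0.06, -0.30 and -0.25 log2 on the IL-1Ra arrays, 0.24, 0.44 and -0.08 on the 4NQO arrays, and -0.10, 0.13 and -0.03 on the normal arrays. Keratinocyte markers, 9 measured, had 0.43, 0.62 and 0.24 on the IL-1Ra arrays, 0.12, -0.29 and 0.89 on the 4NQO arrays, and 0.30, -0.42 and 0.12 on the normal arrays. Within each group, the array with the lowest fast fibre mean had the highest keratinocyte mean.

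Markers of other tissue layers differed between groups as well. Over 11 genes of the cornified layer of the epithelium, the mean deviation was 0.61, 0.59 and 0.36 log2 on the IL-1Ra arrays, -1.40, -2.98 and -1.07 on the 4NQO arrays, and 0.16, -0.37 and 0.21 on the normal arrays. Of the 11, 6 passed as higher in IL-1Ra against 4NQO, beside 495 of all 31042 probe sets. As lower in 4NQO against normal, 6 passed, beside 5.08% of all genes. Over 8 fibroblast genes the mean deviation was -0.52, -0.31 and -0.10 on the IL-1Ra arrays, -0.33, -1.79 and -0.90 on the 4NQO arrays, and -0.04, 0.17 and -0.13 on the normal arrays. The IL-1Ra and 4NQO arrays overlapped, and 6 of these genes passed as lower in 4NQO against normal, beside 5.08% of all genes. Over 7 endothelial genes the mean deviation was -0.01, 0.15 and 0.45 on the IL-1Ra arrays, 0.74, 0.78 and 0.49 on the 4NQO arrays, and -0.08, 0.16 and -0.08 on the normal arrays. Of these, 4 passed as higher in 4NQO against normal, beside 12.4% of all genes. All 4NQO arrays thus lay below all others in the cornified list and above all others in the endothelial list. The part that the makeup of each piece of tissue had in the fast fibre values was not tested, and in bulk tissue fewer fibres and less RNA per fibre cannot be told apart.

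When each array was scaled to its own mean over the 13 shared sarcomere genes, the median over the 10 fast genes was 0.23 log2 in IL-1Ra against 4NQO, against -0.17 without this scaling. Actn3 then passed as lower in IL-1Ra (-2.04 log2; limma adjusted p = 0.04), while Tnnt3, Tnni2, Tnnc2 and Atp2a1 took the other sign without passing. This scaling put the median of all probe sets at 0.38 log2 in that comparison, and 0.0387% of them passed as lower under it.

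RNA quality was read as the 3′ minus 5′ log2 difference of control transcripts, and 3 arrays against 3 cannot give an exact p below 0.1. For hexokinase it was 1.98 ± 0.20 in IL-1Ra tongue, 1.5 ± 0.26 in 4NQO tongue and 1.5 ± 0.03 in normal tongue (SD, n = 3; exact permutation p = 0.1 in IL-1Ra against either). For beta-actin it was 1.13 ± 0.15 in IL-1Ra tongue, 1.2 ± 0.11 in 4NQO tongue and 0.80 ± 0.06 in normal tongue (exact permutation p = 0.1 for IL-1Ra and for 4NQO against normal, n = 3). For GAPDH it was 0.27 ± 0.01 in IL-1Ra tongue, 0.35 ± 0.07 in 4NQO tongue and 0.27 ± 0.03 in normal tongue (exact permutation p = 0.1 for IL-1Ra against 4NQO and for 4NQO against normal, n = 3). The part of RNA quality in the differences of Myh2, Actn3 and Mybpc2 was not tested.

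Slow fibre genes were measured on the same arrays, in a list that also held Actn2, which is used in fast fibres too. Of 14, 5 passed as lower and 0 as higher in IL-1Ra against 4NQO, with a median of -0.86 log2 (0.753% of all genes passed as lower). Against normal, 6 passed as lower in IL-1Ra and 0 as higher, with a median of -0.99 (0.542% of all genes lower). One passed as higher in 4NQO against normal (Pln, the inhibitor of the slow calcium pump, at 0.86 log2; limma adjusted p = 0.0284), beside 12.4% of all genes, and it passed again in 5 of the 9 fits that left out 1 array.

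The 4 slow genes with the lowest adjusted p in IL-1Ra against 4NQO were Casq2, the slow calsequestrin, which fell 2.47-fold to 6.01 ± 0.58 log2 against 7.32 ± 0.09, Atp2a2, encoding the slow calcium pump, which fell 1.72-fold, and the troponins Tnnc1 and Tnni1, which fell 2.76-fold and 2.08-fold (limma adjusted p = 0.0243, 0.0277, 0.0373 and 0.0419). The mean deviation over the slow list was -0.73, -0.95 and -1.29 log2 on the IL-1Ra arrays, 0.11, -0.24 and -0.13 on the 4NQO arrays, and -0.22, 0.14 and 0.08 on the normal arrays. All IL-1Ra arrays lay below the rest, with IL-1Ra array 3 the lowest, as for Myh2. The calls depended on the setting. Scaled to the shared sarcomere genes, 1 of 14 passed as lower in IL-1Ra against 4NQO and 0 in IL-1Ra against normal. Without IL-1Ra array 2 the counts were also 1 and 0. Of all probe sets, only 12 and 6 passed as lower with the scaling, and 20 and 3 without IL-1Ra array 2. The slow medians were -0.46 and -0.79 log2 with the scaling, beside 0.38 and 0.19 over all probe sets. Without IL-1Ra array 2 they were -0.95 and -1.06.

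**Figure D4:**
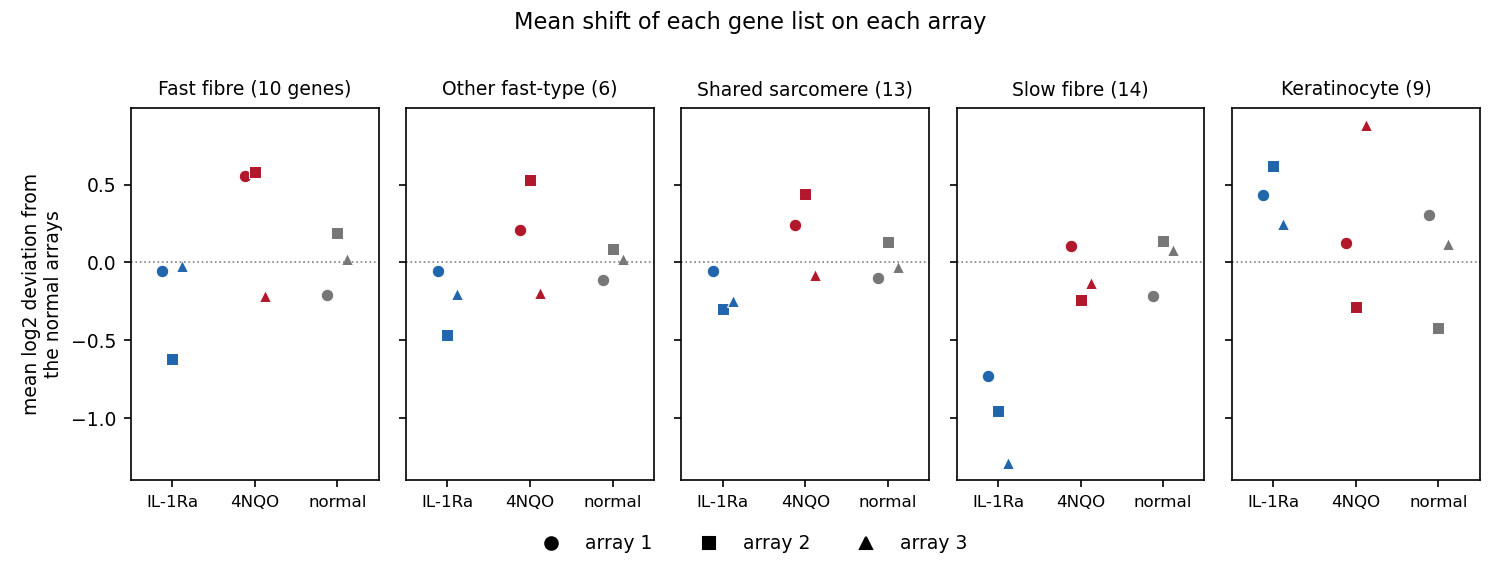
Mean log2 deviation from the normal arrays (vertical) of 5 gene lists on each array, in blue for IL-1Ra, red for 4NQO and grey for normal. The slow fibre list lies below -0.70 on all 3 IL-1Ra arrays, while the fast fibre list lies near 0 on IL-1Ra arrays 1 and 3, and 4NQO array 3 is low in the fast list and the highest array in the keratinocyte list.

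Fast and slow genes were then set against each other within each array, in 7 pairs of related genes. The pairs encode the fast and slow forms of 1 protein, except Actn3 and Actn2. Actn2 is used in fast fibres as well as slow ones, so that pair is not a fast against slow contrast. The pairs were chosen after their values were seen. In IL-1Ra against 4NQO the change of the fast form lay above that of the slow form, with no overlap between the arrays, in 4 pairs: Tnnt3 against Tnnt1 by 1.67 log2, Tnnc2 against Tnnc1 by 1.36, Tnni2 against Tnni1 by 0.86 and Atp2a1 against Atp2a2 by 0.68. For Actn3 against Actn2 the order was the opposite, at -1.93 log2 and also without overlap. For Myh2 against Myh7 the difference was 0.06 and for Mybpc2 against Mybpc1 -0.12, and the arrays overlapped. Myh7 was dim, at 3.27 log2 in IL-1Ra tongue, 4.19 in 4NQO tongue and 4.17 in normal tongue. Its arrays lay between the 7.33rd and the 40.85th percentile, so its difference was read near the low end of the range and did not pass (limma adjusted p = 0.169).

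Between IL-1Ra and normal tongue, 5 of the 7 pairs separated with the fast form higher relative to the slow one, by 0.34 log2 (Mybpc2 against Mybpc1) to 1.57 (Tnnc2 against Tnnc1), and Myh2 and Actn3 overlapped. Between 4NQO and normal tongue, 3 pairs separated: Actn3 against Actn2 by 1.75, Tnni2 against Tnni1 by 0.60 and Mybpc2 against Mybpc1 by 0.46. Because 3 arrays against 3 cannot give an exact p below 0.1, the 7 pairs are a description without a test. Single probe sets separated in either direction for 20.6% in IL-1Ra against 4NQO, 35.3% in IL-1Ra against normal and 38.2% in 4NQO against normal. The fast members of the 4 pairs are those nearest the top of the range, at over 13 log2, and 3 of their slow partners averaged under 9 log2 in each group, so the 2 sides were read at different parts of the array scale.

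**Figure D5:**
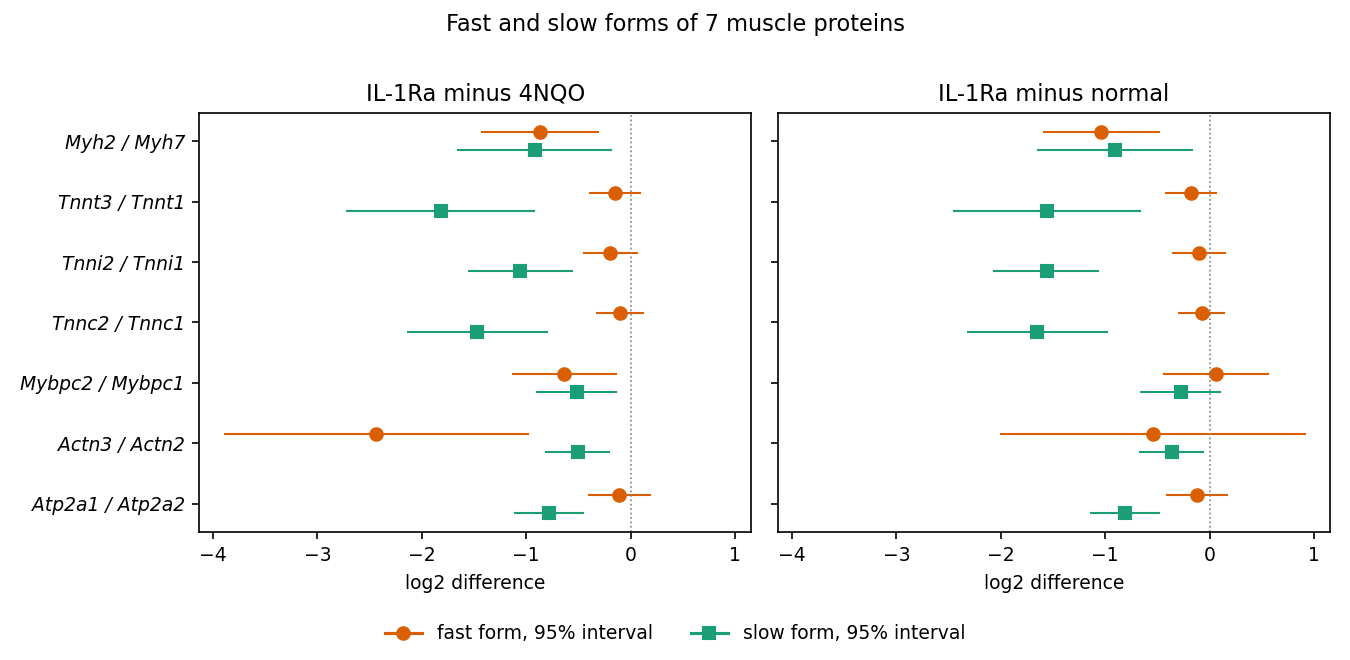
Log2 difference of the fast form (orange circles) and the slow form (green squares) of 7 muscle proteins with 95% intervals, in IL-1Ra minus 4NQO (left) and IL-1Ra minus normal (right). The slow troponins lie between -1.06 and -1.82 and the fast ones between -0.08 and -0.19. Myh2 and Myh7 lie at -0.86 and -0.92 in IL-1Ra minus 4NQO. Myh7 was read near the low end of the range, at group means of 3.27 to 4.19 log2. Actn3 lies at -2.44 in IL-1Ra minus 4NQO with the widest interval. Its partner Actn2, drawn as a slow form, is used in both fibre types.

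Other genes of fast or general muscle function gave few calls. Of 6 other fast-type genes (such as Myl1, the fast light chain, and Casq1, the fast calsequestrin), 0 passed in any comparison, with medians of -0.31 log2 in IL-1Ra against 4NQO, 0.16 in 4NQO against normal and -0.17 in IL-1Ra against normal. Of the 13 shared sarcomere genes, 1 passed as lower in IL-1Ra against 4NQO: Ttn, encoding the spring protein titin, at 12.01 ± 0.22 log2 against 12.73 ± 0.22 (1.64-fold; limma adjusted p = 0.0494), in a direction in which 0.753% of all genes passed. This call sat at the threshold: with 1 array left out, Ttn passed in 1 of 9 fits, and it did not pass with shared sarcomere scaling (limma adjusted p = 0.164), which is built from this list. Without 4NQO array 3, 5 of the 13 passed as lower, beside 4.43% of all genes. Without IL-1Ra array 2, 0 did, where only 20 of all probe sets passed as lower. Another 2 passed as higher in 4NQO against normal, Tcap, which caps titin at the Z-disc, by 0.69 log2 and Myom1, a protein of the M-band, by 0.55 (limma adjusted p = 0.0175 and 0.0426), beside 12.4% of all genes. Leaving out 1 array at a time, Tcap passed in 7 of 9 fits and Myom1 in 1 of 9.

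Of 14 genes that couple excitation to calcium release, 0 passed in any comparison at the main setting. Without 4NQO array 3, 8 passed as lower in IL-1Ra against 4NQO and 7 as higher in 4NQO against normal. In the same fit 4.43% of all genes passed as lower in IL-1Ra against 4NQO and 11.8% as higher in 4NQO against normal. Of 10 genes of muscle glycolysis and of 14 measured regulators of muscle gene expression, among them Myod1, Myog and Mef2c, 0 passed in any comparison. Fabp3, a fatty acid carrier of oxidative fibres, was the 1 of 6 oxidative genes that passed, at 11.99 ± 0.16 log2 in IL-1Ra tongue, 12.61 ± 0.20 in 4NQO tongue and 13.19 ± 0.07 in normal tongue. It was lower in all 3 comparisons (limma adjusted p = 0.0441 in IL-1Ra against 4NQO, 0.0209 in 4NQO against normal and 0.0196 in IL-1Ra against normal), directions in which 0.753%, 5.08% and 0.542% of all genes passed. With shared sarcomere scaling Fabp3 did not pass in IL-1Ra against 4NQO (limma adjusted p = 0.31) or IL-1Ra against normal (0.0817). Leaving out 1 array at a time, it passed in 1, 6 and 4 of 9 fits in these 3 comparisons. The 1 in IL-1Ra against 4NQO was that without 4NQO array 3. In IL-1Ra against normal, the fits without an IL-1Ra array passed only 1 to 6 of all probe sets, and those without a normal array 0.

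Among the 14025 genes outside all the gene lists used here, the 5 whose values over the 9 arrays most resembled the mean profile of the 10 fast genes were Fhl1, a LIM protein of the sarcomere (Pearson r = 0.984), Aqp4, a water channel of the fast fibre membrane (0.975), Sfrp5, a secreted Wnt inhibitor (0.974), Zcchc24, a zinc finger protein (0.968), and Myo18b, an unconventional myosin of muscle (0.964). These correlations describe 9 points each, and the points share their group and the tissue makeup of each array. Actn3 and Pvalb, the genes of widest range, weigh most in the mean profile. Aqp4 averaged 7.76 ± 0.72 log2 in IL-1Ra tongue, 9.05 ± 0.99 in 4NQO tongue and 8.41 ± 0.22 in normal tongue, an order in which the neighbouring groups overlapped in their SD.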

How the data were processed

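Total RNA of rat tongue was hybridised to Affymetrix rat genome arrays, 1 per sample. RMA and Affymetrix Expression Console are named in the submitters' processing notes. RMA corrects background, makes the distributions of the arrays alike and combines the probes of each set into 1 value. Versions and genome build: not given in the sources used here. Linear intensities, 1 per probe set and array, were deposited by the authors, and log2 was taken here. Array medians ran between 37.5 and 38.6 intensity units, but the quartiles differed between normal and treated arrays. Upper quartiles were 7.04 to 7.08 log2 on the normal arrays and 7.16 to 7.28 on the 4NQO and IL-1Ra arrays. Lower quartiles were 3.73 to 3.78 on the normal arrays and 3.60 to 3.70 on the 4NQO and IL-1Ra arrays.

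Of 31099 probe sets, 57 controls were left out and 31042 tested. Platform annotation gave 20826 a single symbol, 436 several and 9780 none. A gene was represented by the probe set with the highest mean, and 4525 of 14217 genes had several. Group means of the 9 arrays were fitted with limma 3.58.1 in R 4.3.3 (6 residual and 4.01 prior degrees of freedom). Tests were two-sided, adjusted by Benjamini-Hochberg over all probe sets in each of 3 comparisons, at a threshold of 0.05. The number of arrays limits the precision, and the procedure was tested on simulated data.

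Other settings were quantile, cyclic loess, 75th percentile and shared sarcomere scaling, leaving out the 40% dimmest probe sets, a trended robust variance, array weights, only the 6 arrays compared, the methods' t-test, the dimmest probe set of each gene and leaving out each array. The 10 genes and the lists were chosen with earlier results of these data known. The text names all 10, up to 4 passing genes of a described list, by lowest adjusted p, and the 5 most correlated genes. Genes given as examples of a list or as neighbours in the myosin cluster, and the fast and slow pairs, were chosen after values were seen. Promoter windows are from RefSeq (GRCr8), and 10 of 10 genes were matched by gene ID. Python 3.11.15, pandas 2.3.3 and matplotlib 3.10.9 were used for the sequences and figures.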

Additional observations from a re-analysis of the deposited data

How the results depend on the processing

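No paired analysis was possible because the labels give no replicate number shared between groups. Of 10 fast genes, 0 passed in each comparison. With array weights 2 passed in 4NQO against normal (Actn3 and Mybpc2), and 1 with the dimmest probe set of each gene (Mybpc2). With 1 array left out, 0 to 2 passed (2 without 4NQO array 3, 1 without IL-1Ra array 2). Of all probe sets, 17.6% passed with array weights, 14.1% without 4NQO array 3 and 11.7% without IL-1Ra array 2. For IL-1Ra against 4NQO 1 passed with shared sarcomere scaling (Actn3), which put the median at 0.23 log2. With 1 array left out, 0 to 2 passed (2 without 4NQO array 3). Of all probe sets, 9.34% passed with this scaling and 7.58% without 4NQO array 3. For IL-1Ra against normal 1 passed with 75th percentile scaling, with array weights and by the methods' t-test unadjusted (Myh2 each time). Of all probe sets, 3.36%, 11.5% and 24.5% passed in these settings. With 1 array left out, 0 to 1 passed (1 without 4NQO array 3, beside 6.71% of all probe sets). With 1 array left out, the median of the 10 ran between -0.01 and 0.19 in 4NQO against normal, -0.44 and -0.11 in IL-1Ra against 4NQO, and -0.19 and 0.01 in IL-1Ra against normal.

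Differences that changed sign did not pass before or after. In 4NQO against normal they were Tnnt3 at 0.0301 and Atp2a1 at 0.0405 after quantile normalization, Tnnt3 at 0.0189 and Atp2a1 at 0.0324 after cyclic loess, Myh1 at -0.058, Tnni2 at -0.10 and Tnnc2 at -0.17 with 75th percentile scaling, Myh1 at -0.0666, Tnni2 at -0.11 and Tnnc2 at -0.17 with shared sarcomere scaling, Myh4 at 0.10 and Atp2a1 at 0.0375 with array weights, and Myh1 at -0.35 and Tnnt3 at 0.23 with the dimmest probe sets. With 1 array left out, Myh1 ran between -0.0126 and 0.23, Tnnc2 between -0.0143 and 0.072, Myh4 between -0.57 and 0.48, Tnnt3 between -0.0771 and 0.0311 and Atp2a1 between -0.0881 and 0.11. In IL-1Ra against 4NQO they were Myh1 at -0.000705 after quantile normalization, Tnnt3 at 0.25, Tnni2 at 0.21, Tnnc2 at 0.30 and Atp2a1 at 0.29 with shared sarcomere scaling, Myh4 at -0.28 with array weights and Myh1 at -0.16 with the dimmest probe set. With 1 array left out, Myh1 ran between -0.0696 and 0.17 and Myh4 between -0.62 and 0.43. In IL-1Ra against normal they were Tnnc2 at 0.0343 after cyclic loess, Mybpc2 at -0.0919 with 75th percentile scaling, Myh4 at 0.0632, Tnnt3 at 0.0223, Tnni2 at 0.0955, Tnnc2 at 0.12 and Atp2a1 at 0.0775 with shared sarcomere scaling, and Myh1 at -0.51 with the dimmest probe set. With 1 array left out, Mybpc2 ran between -0.0491 and 0.22, Myh4 between -0.32 and 0.0507, Actn3 between -0.90 and 0.14 and Pvalb between -1.06 and 0.37. The cause was not tested.

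Counts over all probe sets moved too. For 4NQO against normal 4610 passed (63.4% higher), 2821 after quantile normalization (51.9%), 2480 after cyclic loess (47.7%), 7100 with 75th percentile scaling (18.4%) and 1161 with shared sarcomere scaling (11.6%), and 851 to 4417 with 1 array left out. The methods' t-test gave 8236 unadjusted and 1 after Benjamini-Hochberg. For IL-1Ra against 4NQO 722 passed (68.6% higher), 732 after cyclic loess (79.9%), 720 with 75th percentile scaling (82.1%), 2900 with shared sarcomere scaling (99.6%), 195 with only the 6 arrays compared and 184 to 2353 with 1 array left out, and the t-test gave 3737 and 0. For IL-1Ra against normal 581 passed (71.1% higher), 203 after quantile normalization (46.3%), 97 after cyclic loess (35.1%), 1042 with 75th percentile scaling (18.8%), 9 with shared sarcomere scaling (33.3%), 3556 with array weights, 2714 with only the 6 arrays compared and 0 to 2084 with 1 array left out (0 without any 1 of the normal arrays), and the t-test gave 7614 and 109. The number of arrays and the closeness of 4 genes to the top of the range limit what the intervals can show.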

Other observations

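Genes of the nerve contact and of muscle wasting were measured beside the fast fibre genes. Of 10 genes of the neuromuscular junction, 1 passed as lower in IL-1Ra against 4NQO: Chrna1, encoding the alpha subunit of the muscle acetylcholine receptor, at 6.55 ± 0.14 log2 against 7.18 ± 0.13 (SD, n = 3; limma adjusted p = 0.0296). It was also lower in IL-1Ra against normal, by 0.73 log2 (limma adjusted p = 0.0365). As lower, 0.753% of all genes passed in IL-1Ra against 4NQO and 0.542% in IL-1Ra against normal. Neither call held with shared sarcomere scaling (limma adjusted p = 0.371 and 0.215). Under it 0.0387% of all probe sets passed as lower against 4NQO, and 9 probe sets passed in all against normal. With 1 array left out, Chrna1 passed in 4 of 9 fits against 4NQO and 3 of 9 against normal, in none of those without an IL-1Ra array. In IL-1Ra against normal, few probe sets of any kind passed in some of these fits. Only 1, 6 and 1 passed without IL-1Ra array 1, 2 and 3, and 0 without any 1 of the normal arrays. Between 4NQO and normal, Rapsn, encoding the protein that clusters the receptor, rose by 0.58 log2, and Chrng, encoding the receptor subunit of fetal muscle, fell by 0.58 (limma adjusted p = 0.0226 and 0.0318), where 12.4% of all genes passed as higher and 5.08% as lower. With shared sarcomere scaling neither passed (limma adjusted p = 0.186 and 0.0561), and with 1 array left out Rapsn passed in 6 and Chrng in 4 of 9 fits.

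Of 10 genes linked to muscle atrophy, 2 rose and 1 fell in 4NQO against normal, beside 12.4% and 5.08% of all genes. With shared sarcomere scaling 0 passed as higher and 3 as lower, beside 135 and 1026 of the 31042 probe sets. Without 4NQO array 3 the counts were 2 and 0, beside 2896 and 1474. Fbxo30, encoding a ubiquitin ligase, rose by 0.50 log2, and Mstn, encoding the growth inhibitor myostatin, by 0.90 at a low level of 4.25 ± 0.32 against 3.35 ± 0.27. Ctsl, encoding a lysosomal protease, fell by 0.57 (limma adjusted p = 0.0203, 0.0233 and 0.0375). With 1 array left out they passed in 6, 7 and 2 of 9 fits. In IL-1Ra against 4NQO, Fbxo30 was at 5.50 ± 0.15 log2 against 6.33 ± 0.13 (limma adjusted p = 0.00676), and the other 9 did not pass. Fbxo30 passed in all 9 fits with 1 array left out, but not with shared sarcomere scaling (limma adjusted p = 0.1). Under this scaling 2 of the 10 passed as higher and 0 as lower, beside 2888 and 12 of the 31042 probe sets. The ubiquitin ligase genes Trim63 and Fbxo32, named after their values were seen, passed in none of the 3 comparisons.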
